A study of Mus musculus with 6 samples.

Results

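The genes described here make up the axis of interleukin 1 (IL-1) and interleukin 18 (IL-18): the cytokine genes Il1a, Il1b and Il18, the inhibitor genes Il1rn and Il18bp, the receptor genes Il1r1, Il1r2 and Il1rap, the inflammasome sensor gene Nlrp3 and the protease gene Casp1. They were chosen by name, as array probes whose transcript accession belongs to 1 of these 10 genes. All 10 had a probe, 12 probes in all, and 9 of the 10 genes entered a test that covered 25777 genes and transcripts. Il1a did not enter it, because its probe stood well above background on only 2 of the 6 arrays.

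The samples were cells of mesenteric fat freed by collagenase and rid of red cells, the mixture other than adipocytes that is called the stromal vascular fraction. All mice were male C57BL/6JHamSlc-ob/ob animals, whose leptin gene is mutated and which become obese, so both groups share that mutation. The propolis group received a Brazilian propolis ethanol extract, made from a resin that bees collect, by intraperitoneal injection at 100 mg/kg, 2 injections a week for 12 weeks. The vehicle group received a solution with a little DMSO and ethanol over the same 12 weeks, and the labels give no age. Each group has 3 samples, each read on 1 one-colour Agilent array. The labels call them biological replicates without saying how many mice each holds, so a p-value measures only the spread between these samples.

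Values are log2 intensities minus the array's 75th percentile, so 0 is the 75th percentile, and each step of 1 is a factor of 2. The 75th percentile lay between 525.5 and 858.9 intensity units, and the share of spots well above background between 61.1% and 66.7%. Slide 1 carried replicates 1 and 2 of both groups, and slide 2 carried replicate 3 of both. Stromal progenitor and fibroblast markers were bright on every array, with list means of 5.48 to 5.84, and macrophage markers had list means of 3.47 to 3.88. Vehicle 2 carried pancreatic acinar transcripts (list mean 4.45, against -3.56 to -2.70 on the other arrays) and vehicle 3 intestinal epithelial transcripts (4.39, against -3.75 to -0.70). B cell markers averaged 1.47 on vehicle 2, -0.55 on vehicle 1 and -3.58 to -2.08 on the others.

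IL-1 alpha and IL-1 beta act through the receptor IL-1R1, which signals once it has recruited the accessory protein encoded by Il1rap. The receptor antagonist encoded by Il1rn occupies IL-1R1 without signalling, and IL-1R2 is a decoy receptor that binds IL-1 but lacks the signalling domain. IL-1 beta and IL-18 are made as inactive precursors that caspase-1 cuts after an inflammasome, such as the one built around NLRP3, has activated it, and the protein encoded by Il18bp captures free IL-18. In obese fat, macrophages are a known source of IL-1 beta, and stromal cells carry its receptor.

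Of the 9 members tested, limma called 0 at an adjusted p under 0.05, where 0.819% of all genes tested passed (0.706% higher and 0.113% lower after propolis). Of the 9, 5 had an unadjusted p under 0.05, 4 with a higher and 1 with a lower mean, against 11.6% of all genes (6.94% higher and 4.66% lower). The same 5 were those whose groups did not overlap, against 17.3% of all genes. Among these 5, the means of Il1r1, Il1r2, Il18 and Il18bp were higher after propolis (10.4% of all genes were higher without overlap) and that of Il1rn was lower (6.88% were lower without overlap). Il1r2 differed most, by 2.43 on the log2 scale, followed by Il1rn at -2.05 and Il1r1 at 1.89. Il1b, Il1rap, Nlrp3 and Casp1 had overlapping groups. The median difference of the 9 was 0.49, beside -0.02 over all genes tested.

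**Figure D1:**
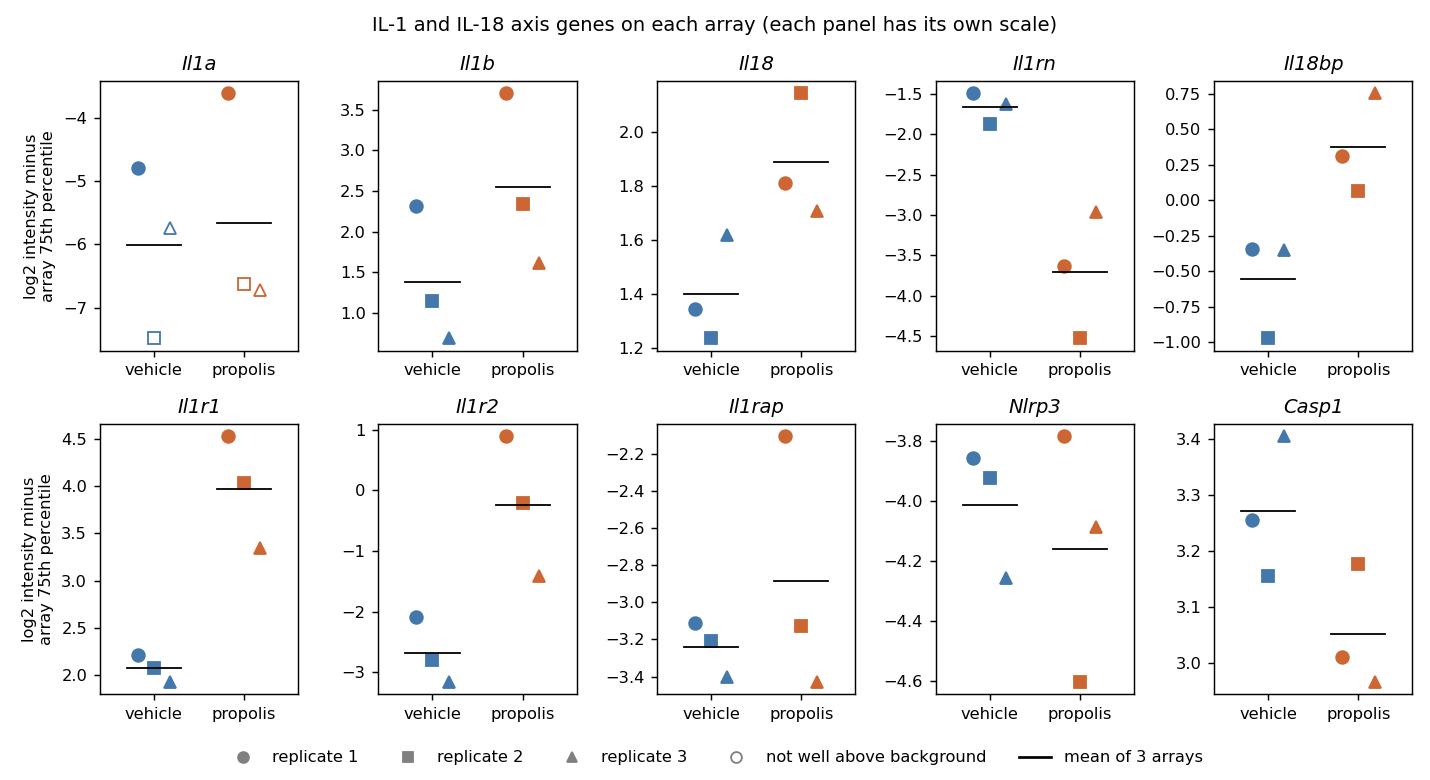
Log2 intensity minus the array's 75th percentile for the 10 genes, 1 point per array, with vehicle arrays at the left (blue) and propolis arrays at the right (orange) of each panel; bars are means of 3 arrays, open symbols were not well above background, and each panel has its own scale. The groups are separate for Il1rn, Il18, Il18bp, Il1r1 and Il1r2, and Il1a is well above background only on vehicle 1 and propolis 1.

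The upstream sequences of the 3 genes with the largest differences are shown first, because Il1r2 and Il1r1 are neighbours on chromosome 1 whose levels were both higher, while Il1rn, on chromosome 2, was lower. They are the 250 bases before each annotated start site, on the plus strand of GRCm38.p6, from RefSeq, 5′ to 3′. The Il1r2 window is chr1:40085843-40086092, the 2 Il1r1 windows are chr1:40224830-40225079 and chr1:40266336-40266585, and the Il1rn windows are those of the first and second of its 3 start sites, chr2:24336610-24336859 and chr2:24345041-24345290. Capitals mark matches, on either strand, to 5 motifs of inflammatory transcription factors: the NF-kappaB motif, TGANTCA of AP-1, TTGCNNAA of C/EBP, GAGGAA of PU.1 and TTCNNNGAA, the GAS motif of STAT factors.
Il1r2: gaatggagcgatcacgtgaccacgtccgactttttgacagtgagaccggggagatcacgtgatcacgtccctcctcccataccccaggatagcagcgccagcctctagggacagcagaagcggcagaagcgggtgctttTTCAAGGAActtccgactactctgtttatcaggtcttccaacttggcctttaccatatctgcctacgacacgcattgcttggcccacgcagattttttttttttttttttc
Il1r1 first start site: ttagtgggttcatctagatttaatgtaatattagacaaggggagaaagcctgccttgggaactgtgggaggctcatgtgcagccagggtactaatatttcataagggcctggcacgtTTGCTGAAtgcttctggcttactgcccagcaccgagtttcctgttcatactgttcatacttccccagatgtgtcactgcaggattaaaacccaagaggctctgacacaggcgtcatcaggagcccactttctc
Il1r1 second start site: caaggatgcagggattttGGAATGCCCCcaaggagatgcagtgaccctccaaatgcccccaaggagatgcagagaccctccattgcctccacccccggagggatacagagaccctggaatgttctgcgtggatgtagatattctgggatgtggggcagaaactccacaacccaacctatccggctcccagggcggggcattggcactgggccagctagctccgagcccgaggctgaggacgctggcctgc
Il1rn first start site: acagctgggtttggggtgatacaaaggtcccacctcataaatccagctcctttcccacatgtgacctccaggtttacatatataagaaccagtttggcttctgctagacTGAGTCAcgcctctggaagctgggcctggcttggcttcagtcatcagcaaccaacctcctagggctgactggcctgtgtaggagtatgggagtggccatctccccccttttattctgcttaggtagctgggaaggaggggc
Il1rn second start site: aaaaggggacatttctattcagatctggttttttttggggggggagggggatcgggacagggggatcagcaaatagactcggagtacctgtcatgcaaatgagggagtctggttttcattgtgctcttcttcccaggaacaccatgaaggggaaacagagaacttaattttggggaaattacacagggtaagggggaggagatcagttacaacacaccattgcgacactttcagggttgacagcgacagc
Counted from the start site, the Il1r2 window held a GAS match at position -111, and the Il1r1 windows a C/EBP match at -133 and an NF-kappaB match at -232. The first Il1rn window held an AP-1 match at -141 and the second held none of the 5 motifs. No matches overlapped each other. Among 32536 upstream windows of the same length, 7.04% held the GAS motif, 9.57% that of C/EBP, 7.28% that of NF-kappaB, 6.73% that of AP-1 and 23.4% that of PU.1. A match describes the letters only, and binding of these factors was not measured.

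The cytokine gene Il1b read 2.31, 1.14 and 0.68 on vehicle 1, 2 and 3, and 3.70, 2.34 and 1.61 on propolis 1, 2 and 3. The 2 groups overlap, and propolis 1 is the highest array. The mean went from 1.38 ± 0.84 to 2.55 ± 1.06 (SD, n = 3), a difference of 1.17 with a 95% interval of -0.37 to 2.71 (adjusted p = 0.571). Slide 1 gave 1.30 and slide 2 gave 0.92. Without vehicle 2 and vehicle 3, the arrays with transcripts of neighbouring organs, the difference was 0.24, and without propolis 1 it was 0.60. The former leaves vehicle 1, which has the highest Il1b of its group, as the only vehicle array. Monocyte markers had their highest list mean, 4.10, on propolis 1 too, against 2.93 to 3.70 on the other arrays. Their part in the Il1b values was not tested.

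Il1a, which encodes the form of IL-1 that is active without caspase-1, read -4.80 on vehicle 1 and -3.62 on propolis 1. These were the only arrays that measured it well above background. On the others it lay between -7.49 and -5.75, below the level at which a probe counted as measured, so no fold is given. The arrays on which Il1a was measured are the ones with the highest Il1b of their group.

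Il18 read 1.34, 1.23 and 1.62 on the vehicle arrays and 1.81, 2.14 and 1.71 on the propolis arrays. All propolis values lie above all vehicle values, by a gap of 0.09 between vehicle 3 and propolis 3. The mean was 1.41-fold higher (log2 difference 0.49, interval 0.0024 to 0.98, adjusted p = 0.429). On slide 1 the difference was 0.69 and on slide 2 it was 0.09. Vehicle 3, the array with intestinal epithelial transcripts, had the highest Il18 of its group, and without it the difference was 0.60. The part of those transcripts was not tested.

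Il1rn read -1.49, -1.87 and -1.62 in vehicle and -3.63, -4.53 and -2.96 in propolis. The vehicle arrays lie within 0.38 of each other, and the highest propolis array lies 1.09 below the lowest of them. The mean was 4.13-fold lower after propolis, going from -1.66 ± 0.19 to -3.71 ± 0.79, with a log2 difference of -2.05 (SE 0.40, interval -3.01 to -1.08). Its adjusted p was 0.0984 and its unadjusted p 0.00182. Slide 1 gave -2.40 and slide 2 gave -1.34, and the slide-blocked adjusted p was 0.0818. Leaving out any 1 array kept the difference between -2.42 and -1.64, with an adjusted p of 0.0648 to 0.319. With normexp background correction it was -1.17 (adjusted p = 0.0543), the smallest size under any setting. The gene has 3 curated RefSeq transcripts, which encode secreted and intracellular forms of the antagonist, and its 1 probe is named by 1 of them, so the forms are not told apart here.

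Il18bp read -0.34, -0.97 and -0.35 in vehicle and 0.31, 0.06 and 0.75 in propolis. The groups are separated by 0.40. The mean was 1.90-fold higher, with a log2 difference of 0.93 (SE 0.27, interval 0.27 to 1.59, adjusted p = 0.252). Both slides gave similar values, 0.84 on slide 1 and 1.10 on slide 2. The antagonist gene of IL-1 and the binding protein gene of IL-18 thus stood on opposite sides of 0, neither past the threshold.

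Il1r1, the signalling receptor gene, read 2.22, 2.08 and 1.93 in vehicle and 4.52, 4.03 and 3.35 in propolis. The vehicle arrays lie within 0.29 of each other and every propolis array lies at least 1.13 above them. The mean was 3.70-fold higher (interval 2.18-fold to 6.28-fold), from 2.08 ± 0.14 to 3.97 ± 0.59, with a log2 difference of 1.89 (SE 0.32, adjusted p = 0.0669). It had the lowest p of the members (unadjusted p = 0.000789, rank 304 of 25777). With slide as a block Il1r1 passed (adjusted p = 0.0463), with differences of 2.13 on slide 1 and 1.41 on slide 2. It also passed with quantile normalization (adjusted p = 0.0499), normexp (0.0445), an intensity trend (0.0408), array weights (0.00353) and without propolis 3 (0.0468). Leaving out another single array gave differences of 1.61 to 1.96 and an adjusted p of 0.126 to 0.237.

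The decoy receptor gene Il1r2 read -2.09, -2.79 and -3.15 in vehicle and 0.89, -0.21 and -1.41 in propolis. Propolis 1 and propolis 3 differ by 2.30, yet propolis 3 still lies 0.67 above the highest vehicle array. The mean was 5.40-fold higher, with a log2 difference of 2.43 (SE 0.60, interval 0.98 to 3.89, adjusted p = 0.175). Slide 1 gave 2.78 and slide 2 gave 1.74, and the slide-blocked adjusted p was 0.0792. Without propolis 1 the difference was 1.87 and without propolis 3 it was 3.02.

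Il1rap has 2 probes, named by different transcripts of a gene known for membrane-bound and soluble products. The brighter probe read -3.11, -3.21 and -3.40 in vehicle and -2.11, -3.13 and -3.43 in propolis, so propolis 1 alone stands apart. Its difference was 0.35 (interval -0.51 to 1.21, adjusted p = 0.782), and without propolis 1 it was -0.038. The other probe read -5.30, -4.95 and -5.05 in vehicle and -3.58, -4.50 and -4.75 in propolis. Its groups do not overlap, with a difference of 0.82 (adjusted p = 0.436 when every probe was tested on its own), so the probes differ in whether the groups overlap.

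**Figure D2:**
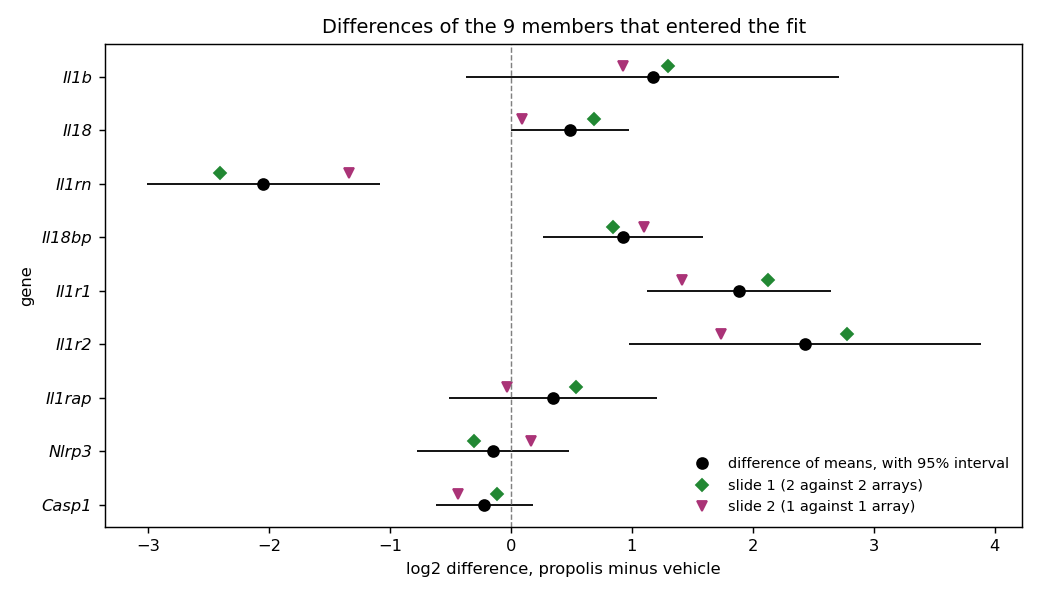
Log2 difference, propolis minus vehicle, for the 9 genes in the fit; black points are differences of the means of 3 arrays with 95% intervals from limma, green diamonds the difference on slide 1 and purple triangles that on slide 2. The intervals of Il1rn, Il18bp, Il1r1 and Il1r2 lie away from 0, that of Il18 reaches down to 0.0024, and the slide values of Il1rap and Nlrp3 lie on both sides of 0.

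The sensor gene Nlrp3 read -3.86, -3.92 and -4.26 in vehicle and -3.79, -4.60 and -4.09 in propolis by its brighter probe. The difference was -0.15 (interval -0.77 to 0.48, adjusted p = 0.884), and it turned to 0.026 with quantile normalization, 0.018 with the array median subtracted, 0.12 with the mean of its 2 probes and 0.076 without propolis 2. The dimmer probe gave 0.39, with overlapping groups. Casp1 read 3.26, 3.16 and 3.40 in vehicle and 3.01, 3.18 and 2.97 in propolis. It varied least of the members, within 0.25 in either group, and its difference was -0.22 (interval -0.62 to 0.18, adjusted p = 0.707). The interval of Casp1 leaves out a 2-fold difference in either direction, and so does that of the brighter Nlrp3 probe. The dimmer Nlrp3 probe, with an SE of 0.36 around its 0.39, sets no such limit.

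The spread within groups was uneven. For 8 of 9 members the 3 propolis arrays covered a wider range than the 3 vehicle arrays, against 60.9% of all genes. Within the propolis group, propolis 1 was the highest array for 5 of 9 members (Il1b, Il1r1, Il1r2, Il1rap and Nlrp3), against 29.9% of all genes. For 7 of 9 members the 2 slides gave the same sign, against 53.1% of all genes. Groups that do not overlap force that agreement.

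Several genes of receptors for the IL-1 family lie next to each other on chromosome 1, in the order Il1r2, Il1r1, Il1rl2, Il1rl1, Il18r1, Il18rap. Il1rap lies apart from them, on chromosome 16. Il18r1 and Il18rap encode the 2 chains of the IL-18 receptor, Il1rl1 the IL-33 receptor ST2, and Il1rl2 the receptor of the IL-36 cytokines. Il18rap read -4.14, -3.49 and -4.04 in vehicle and -2.99, -3.10 and -2.93 in propolis, without overlap, a difference of 0.88 (adjusted p = 0.183). Il18r1 overlapped, since vehicle 2 read 0.94 and propolis 1 read 0.77, and it differed by 1.21 (adjusted p = 0.332). Il1rl2 was well above background on 0 vehicle arrays and on 3 propolis arrays, so it entered the fit only through the group where it read higher. Its measured difference was 0.81 (adjusted p = 0.420), and no support is drawn from that test. With each vehicle array given the dimmest signal that still counted as well above background there, the propolis mean was 1.21-fold higher. Where the gene's measured signal was larger, that signal was used instead. The groups overlapped, with propolis 1 at -5.78 and vehicle 3 at -5.61, so this is no lower bound on a change. Il1rl1 had overlapping groups and a difference of -0.22 (interval -0.99 to 0.55, adjusted p = 0.853). Of the 4 neighbours that are not members, Il18rap alone was higher without overlap, as were 10.4% of all genes.

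**Figure D3:**
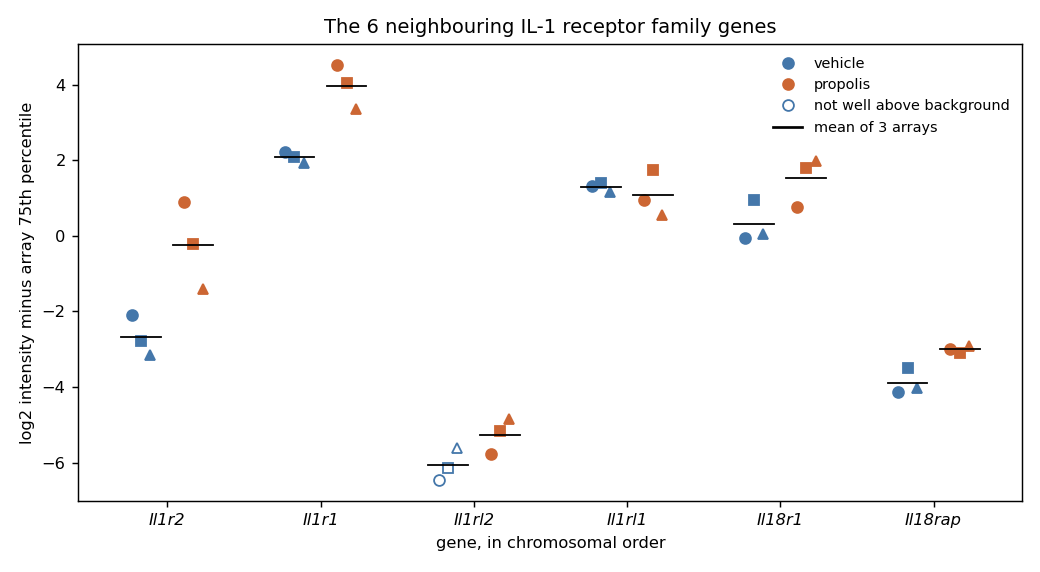
Log2 intensity minus the array's 75th percentile for the 6 neighbouring receptor genes in chromosomal order, 1 point per array (circle, square and triangle for replicates 1, 2 and 3), vehicle in blue, propolis in orange, open where not well above background, with bars for means of 3 arrays. Il1r2, Il1r1 and Il18rap have separate groups, and the groups of Il1rl2, Il1rl1 and Il18r1 overlap.

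Other genes of the IL-1 family were read from a list of 13, of which 12 had a probe and 6 entered the fit. The IL-36 ligand genes Il36a, Il36b and Il36g, and Il1f10, Il1rapl1 and Il1rapl2, stood above background on too few arrays. Of the 6, limma called 0 (0.819% of all genes). Among them 4 with a higher and 1 with a lower mean had an unadjusted p under 0.05, against 6.94% and 4.66% of all genes. Il1rl2, among those 4, entered only through the propolis arrays, so the count is not read as a result about the family. The median difference was 0.85, beside -0.02 over all genes. Il33, an alarmin that stromal and mesothelial cells store in the nucleus, read 2.35, 2.21 and 1.79 in vehicle and 5.33, 4.21 and 3.68 in propolis. The groups are far apart, and the difference of 2.29 had an adjusted p of 0.0920. Sigirr, an inhibitory receptor of the family, read 0.44, 0.68 and 0.87 in vehicle and -0.70, -0.43 and 0.34 in propolis, a difference of -0.93 (adjusted p = 0.308). Propolis 3 lay just below the lowest vehicle array.

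Of 24 inflammasome sensors, adaptors and effectors other than the members, 23 entered and limma called 0 (0.819% of all genes). Of the 23, 1 with a higher and 3 with a lower mean had an unadjusted p under 0.05, against 6.94% and 4.66% of all genes. The median was -0.14. Nlrp10 differed by -1.24 (adjusted p = 0.191), the DNA sensor gene Aim2 by -0.80 (adjusted p = 0.394) and Naip6, of the sensors for flagellin and bacterial secretion proteins, by -0.68 (adjusted p = 0.394). Genes that work beside Nlrp3 and Casp1 had intervals that include 0: the adaptor gene Pycard differed by -0.23, the pore-forming gasdermin gene Gsdmd by -0.06, the kinase gene Nek7 by 0.00 and the ATP receptor gene P2rx7 by 0.06. The Naip genes are close relatives, so the Naip6 value is uncertain.

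The 23 genes of IL-1 receptor signalling were all measured, and limma called 0 of them (0.819% of all genes). Only 1 had an unadjusted p under 0.05, against 11.6% of all genes. The median of the 23 was -0.05. Myd88, the adaptor that IL-1 receptors share with Toll-like receptors, read 1.97, 1.64 and 2.08 in vehicle and 2.98, 2.23 and 2.36 in propolis, a difference of 0.63 without overlap (adjusted p = 0.422). Nfkbiz, a nuclear cofactor that IL-1 induces, differed by 0.54 (adjusted p = 0.618), and Peli1, a ubiquitin ligase of the pathway, by -0.33 (adjusted p = 0.738). The feedback inhibitor genes Nfkbia and Tnfaip3, both NF-kappaB targets, differed by 0.09 and -0.14.

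Proteases that cut or shed IL-1 family proteins and receptors were measured for 10 of 10 genes, of which limma called 0 (0.819% of all genes). An unadjusted p under 0.05 was found for 1 with a higher and 3 with a lower mean, against 6.94% and 4.66% of all genes. The median was -0.13. Prtn3, encoding proteinase 3, differed by 0.97 (adjusted p = 0.103). Ctsg, encoding cathepsin G, differed by -1.37 (adjusted p = 0.167) and the mast cell chymase gene Cma1 by -1.07 (adjusted p = 0.326). Mast cell markers stood lower as a whole, 6 of 6, with list means of 0.49 to 0.60 in vehicle and -0.64 to 0.12 in propolis, a list that itself holds Cma1. Elane, encoding neutrophil elastase, differed by 0.13.

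**Figure D4:**
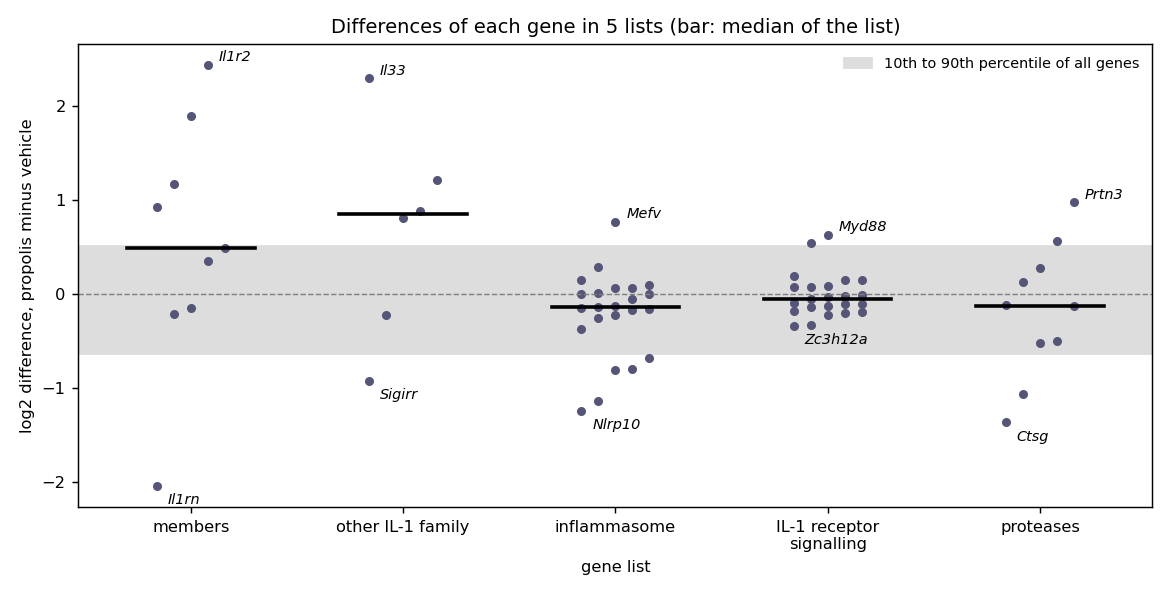
Log2 difference, propolis minus vehicle, of each gene in 5 lists, with the list's median as a bar and the 10th to 90th percentile of all genes tested as a grey band; the highest and lowest gene of each list is named. Il1r2, Il33 and Il1rn lie farthest from 0, and the IL-1 receptor signalling genes lie between -0.34 and 0.63.

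Genes whose profile over the 6 arrays was most like a member's were found by the root mean square distance between values centred on each gene's mean, among genes with a symbol. With 6 arrays such likeness is a description, and each neighbour shares the arrays' scaling. Nearest to Il1r2 were Timp1, a metalloproteinase inhibitor gene, at 0.14, Nppc, the C-type natriuretic peptide gene, at 0.24, Dio3, a thyroid hormone deiodinase gene, at 0.25, and Olr1, an oxidised lipoprotein receptor gene, at 0.28, where the spread of Il1r2 itself was 1.42 on this scale. Timp1 read 4.37, 3.59 and 3.33 in vehicle and 7.02, 5.93 and 4.83 in propolis, the same order of arrays as Il1r2. Nearest to Il1rn were Cadm1 at 0.27, Ptchd1 at 0.29, Atp6v0d2, a proton pump subunit gene, at 0.31, and Timd4, a phosphatidylserine receptor gene of resident macrophages, at 0.34 (spread of Il1rn 1.12). Of these Ptchd1 passed the test over all genes (difference -2.38, adjusted p = 0.0259).

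Among the genes nearest to Il1b were Piwil2 at a distance of 0.25, Ms4a6d at 0.28 and Ccr1l1 at 0.33, against a spread of 0.98. Ms4a6d read 3.19, 2.40 and 2.40 in vehicle and 4.78, 3.84 and 2.75 in propolis, so its groups overlap as those of Il1b do. Il18 had Amot, Pigc, Gramd1b and Ypel2 as neighbours at 0.07 to 0.08, against a spread of 0.30. In none of these 7 did the difference pass the test (adjusted p of 0.289 to 0.748).

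**Figure D5:**
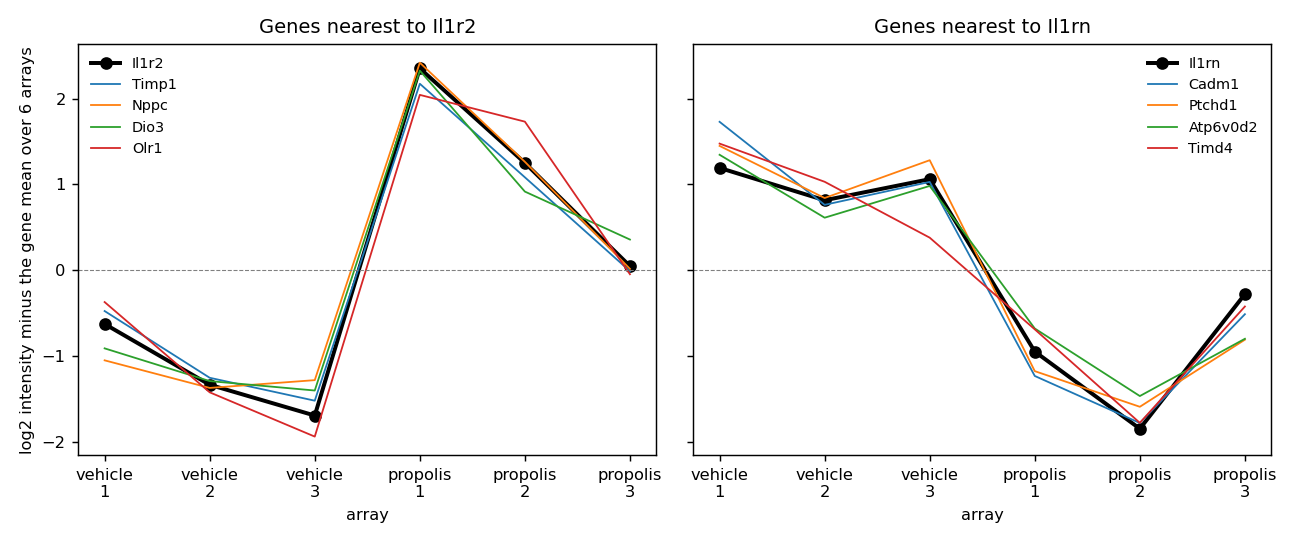
Log2 intensity minus the gene's mean over the 6 arrays, by array, for Il1r2 (left) and Il1rn (right) in black and their 4 nearest genes in colour; lines only link the values of 1 gene and carry no order. The neighbours of Il1r2 peak on propolis 1 and those of Il1rn are lowest on propolis 2.

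Markers of the cell types in the fraction moved with some of these genes. Mesothelial markers had higher means for 8 of 9 genes, of which Bnc1 and Wt1 rose (differences 2.85 and 1.96, adjusted p = 0.0300 and 0.0371), with list means of -0.50 to 1.51 in vehicle and 1.47 to 2.40 in propolis. Progenitor and fibroblast markers had list means of 5.48 to 5.56 in vehicle and 5.68 to 5.84 in propolis, with 5 of 9 genes higher. Of the progenitor and fibroblast genes 4 had lower means, and limma called 0 of 9. Dendritic cell markers had list means of 2.13 to 2.46 in vehicle and 1.20 to 1.86 in propolis, and adipocyte markers 1.87 to 2.63 and 0.79 to 1.64, lower for 7 of 8 and 8 of 8 genes. In the dendritic cell list limma called Itgax lower (difference -2.19, adjusted p = 0.0403). Cd209a alone of that list had a higher mean, without overlap (difference 0.81, adjusted p = 0.213). Endothelial markers had lower means for 7 of 7 genes (1.61 to 2.18 and 0.67 to 1.83), and T cell markers for 7 of 7 (1.15 to 2.60 and 0.85 to 1.66). The list means of mesothelial, endothelial and T cell markers overlapped between the groups. The mesothelial mean of 1.51 was that of vehicle 3, the array with intestinal epithelial transcripts. The listed keratin genes Krt8, Krt18 and Krt19 were highest on vehicle 3 (Krt18 3.82, against -0.03 to 2.64 on the other arrays). Bnc1, Wt1, Upk1b, Msln and Lrrn4 were higher after propolis without overlap, and Upk3b overlapped. The part of the intestinal transcripts in the mesothelial means was not tested. On slide 2, Cd4 alone of the T cell genes was lower after propolis. The part of these cell types in the members' values was not tested. Macrophage list means overlapped as well (3.47 to 3.88 in vehicle, 3.72 to 3.82 in propolis), with 6 of 11 genes higher. So did those of neutrophil (-1.70 to 0.14 and -1.03 to -0.17), natural killer (-0.88 to -0.46 and -0.85 to -0.32) and immediate early genes of tissue dissociation (3.72 to 4.38 and 3.62 to 4.71). The neutrophil list was split, with 8 genes higher and 4 lower. In it S100a8, S100a9, Retnlg, Mmp8, Cxcr2 and Elane were highest on propolis 1, as Il1b was. Ltf, Camp, Ngp and Csf3r were highest on vehicle 1 or vehicle 2, Mmp9 on propolis 3 and Mpo on propolis 2. The part of neutrophils in the Il1b values was not tested. In such bulk samples, fewer cells of a type and less RNA per cell cannot be told apart.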

How the data were processed

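Per the file headers and the submitters' processing notes, the arrays were 1-colour Agilent arrays of a design on mm9, read with Agilent Feature Extraction 10.7.3.1, from 0.1 µg of labelled RNA. The scanner tables deposited by the authors hold a background-subtracted intensity on a linear scale. The authors' deposited series table holds log2 values with each array's 75th percentile near 0. Its medians ran from -3.97 to -3.62, and it was used as an alternative.

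Here the intensity was turned to log2, non-uniform spots were left out, spots of a probe were averaged and the 75th percentile of each array was subtracted. A probe entered if well above background on at least 3 of 6 arrays, as 34782 of 55681 did, and the brightest stood for its gene. Symbols came from RefSeq accessions in a table of GRCm38.p6, matched for 27229 probes. Older names of listed genes were matched through its synonyms.

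The 2 groups were fitted in limma 3.58.1 (R 4.3.3) with no block. P-values were adjusted over the 25777 genes by Benjamini-Hochberg, and 0.05 was the threshold. The program was tested on simulated data. An exact permutation test of 3 against 3 cannot give a p below 0.1, so none was run. No set test was run. Il1a has no test, and the number of arrays limits precision throughout. Replicate numbers were not taken to pair samples, since the labels state no pairing. Deviations of same-numbered arrays correlated at 0.04, 0.29 and 0.14, and those of other pairs at -0.31 to 0.21, which does not decide the matter. The members, the lists and the rules for named genes were chosen with earlier results of these data known. Named genes are the members, the 3 of lowest p in each pathway list and the 4 nearest profiles of 4 members, of which 1 gene is not reported here. Other listed genes were named for their role, for passing the threshold, for their values on single arrays or as the ends of a list. They were chosen after their values were seen. Alternatives covered scaling, background correction (normexp on median signals, the spot signal used here), filters, probe rules, the series table, variance models, array weights, slide and replicate blocks, slide 1 alone and each array left out. Leaving out vehicle 2 and vehicle 3 together was added after seeing the data, and it leaves vehicle 1 as the only vehicle array.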

Additional observations from a re-analysis of the deposited data

How the results depend on the processing

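Of the 9 members, limma called 0 in the analysis reported. It called 1 (Il1r1) with quantile normalization, with normexp, with an intensity trend and with slide as a block. With array weights, which ran from 0.293 for propolis 3 to 8.80 for vehicle 1, it called 4 (Il1r1, Il1r2, Il18 and Il1rn). Leaving out 1 array gave 0 to 1 members, the 1 being Il1r1 without propolis 3. Over all genes 211 passed, and 317 with the array median subtracted, 96 with no filter on dim probes, 3220 with array weights, 0 on slide 1 alone, 0 without vehicle 2 and vehicle 3 together, 43 with the replicate block and 10 to 91 with 1 array left out. The replicate block called 0 of the members, and with it the limma adjusted p of Il1b was 0.104, against 0.571 with no block. The cause of these shifts was not tested.

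Subtracting the array median moved the median of all genes from -0.02 to 0.15. The sign of Nlrp3 turned with it (0.018), with quantile normalization (0.026) and with the mean of its probes (0.12). The difference of Nlrp3 was -0.54 with array weights and ran from -0.33 to 0.076 with 1 array left out. The difference of Il1rap ran from -0.038 to 0.62 with 1 array left out. Il1b, Il1rn, Il18, Il18bp, Il1r1, Il1r2 and Casp1 kept their direction under all 21 alternatives. Sizes moved by over 1.5 times for Il1b (0.37 with array weights, 0.60 without propolis 1, 0.24 without vehicle 2 and vehicle 3), Il18bp (0.59 with array weights), Il1rn (-1.17 with normexp) and Casp1 (-0.055 with the array median subtracted, -0.12 with array weights, -0.11 on slide 1 alone).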
